A study of Mus musculus with 3 samples.

Results

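Astrocytes are the glial cells that clear transmitter from synapses, buffer potassium, contact blood vessels and feed neurons, and a set of 34 genes widely used to mark them was followed here through Runx1 chromatin immunoprecipitation and sequencing (ChIP-seq) of mouse spinal cord. The members were taken by gene symbol from a list covering transporters, water channel and junction proteins, metabolic enzymes, filaments, receptors, transcription regulators, secreted proteins and metal-binding proteins. All 34 matched a coding gene among the 21887 of RefSeq. Regions assigned to them by the authors numbered 0 of 451 in replicate 1, 5 of 1641 in replicate 2 and 22 of 13194 in replicate 3. At least 1 region was assigned to 15 of the 34 genes, and 19 had none in any replicate. Of all coding genes, 31.5% had an assigned region in replicate 3 alone. The share over any replicate is not given here, so no difference is read from the count of 15.

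The study used dissociated spinal cord cells of male C57BL/6J mice aged 8 to 10 weeks, with no treatment or genotype contrast in the labels. Each of the 3 immunoprecipitations held chromatin of 10 cords, fixed in pools of 5, about 10 µg in all, with 9 µg of a rabbit polyclonal antibody to Runx1. The 3 libraries form 1 group, so there is no contrast between conditions, and nothing in the labels says that they came from separate animals, so the spread between them may be technical. The tissue field of replicate 3 repeats the antibody, and its title gives the tissue. Whole cords hold astrocytes, oligodendrocytes, neurons, microglia and vascular cells together, so the cell type in which a region was bound cannot be told apart, and with no expression in the files the astrocyte label was not checked. Runx1 is a DNA-binding protein best known from blood-cell development and microglia, and it reads the core letters TGTGGT. In astrocytes, glutamate is taken up by the transporters of Slc1a2 and Slc1a3 and turned into glutamine by the enzyme of Glul, which is released back to neurons.

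The lists of the libraries differ greatly in length, and this sets how many genes any list can reach. Of all coding genes, 1.51% had an assigned region in replicate 1, 5.17% in replicate 2 and 31.5% in replicate 3. How many reads each library had is not stated, so depth is known only through the peaks. The median pileup at a summit, recovered from the deposited values, was 21, 20 and 24 fragments, over a median local background of 3.47, 4.12 and 5.66 fragments. Peak lists hold only what passed the authors' limit, so a gene without a region was not shown to lack binding.

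The upstream sequences of 6 members are printed, each as the 250 bases before an annotated start (GRCm38.p6), 5′ to 3′ on the gene's strand. For Glul, Cst3, Mt3 and Aldoc this is the start of the RefSeq body. The starts used for Mt1 and Slc1a2 lie inside the RefSeq body, which begins at 94178883 and 102658239. The first 5 belong to the members with the strongest regions within 1 kb of a start in replicate 3 that have a sequence in the table, and Aldoc was added after its values were seen. Capitals mark TGTGGT or its reverse complement ACCACA, searched on both strands.
Glul, chr1:153899679-153899928, plus strand: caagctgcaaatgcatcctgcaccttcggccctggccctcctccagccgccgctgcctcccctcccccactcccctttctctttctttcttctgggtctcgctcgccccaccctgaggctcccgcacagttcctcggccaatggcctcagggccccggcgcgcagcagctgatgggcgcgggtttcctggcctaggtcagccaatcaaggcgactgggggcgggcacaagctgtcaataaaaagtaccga
Mt1, chr8:94178839-94179088, plus strand: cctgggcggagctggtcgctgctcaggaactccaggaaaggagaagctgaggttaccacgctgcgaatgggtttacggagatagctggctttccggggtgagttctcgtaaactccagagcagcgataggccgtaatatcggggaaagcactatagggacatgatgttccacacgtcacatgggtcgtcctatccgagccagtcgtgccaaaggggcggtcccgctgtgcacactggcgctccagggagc
Cst3, chr2:148875513-148875762, minus strand: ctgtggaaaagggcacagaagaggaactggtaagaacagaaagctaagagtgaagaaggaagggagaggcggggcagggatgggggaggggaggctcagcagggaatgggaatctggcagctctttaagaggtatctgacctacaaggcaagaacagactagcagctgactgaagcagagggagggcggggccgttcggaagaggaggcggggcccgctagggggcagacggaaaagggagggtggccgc
Mt3, chr8:94152357-94152606, plus strand: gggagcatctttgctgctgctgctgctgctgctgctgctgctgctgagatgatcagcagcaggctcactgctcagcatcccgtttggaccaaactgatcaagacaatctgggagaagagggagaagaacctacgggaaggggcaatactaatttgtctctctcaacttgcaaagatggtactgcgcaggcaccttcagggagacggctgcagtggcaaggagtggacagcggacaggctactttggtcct
Slc1a2, chr2:102706188-102706437, plus strand: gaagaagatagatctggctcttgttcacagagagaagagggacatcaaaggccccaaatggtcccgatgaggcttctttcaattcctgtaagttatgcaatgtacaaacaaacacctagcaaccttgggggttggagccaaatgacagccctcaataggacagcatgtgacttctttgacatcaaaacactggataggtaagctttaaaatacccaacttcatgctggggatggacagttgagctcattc
Aldoc, chr11:78322823-78323072, plus strand: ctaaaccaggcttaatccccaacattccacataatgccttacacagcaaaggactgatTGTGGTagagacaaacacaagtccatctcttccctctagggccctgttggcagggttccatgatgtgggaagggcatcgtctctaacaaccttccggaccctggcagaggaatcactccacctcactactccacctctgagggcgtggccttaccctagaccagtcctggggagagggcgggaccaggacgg

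Only the Aldoc stretch holds the core letters, 192 bases before the start (78322881 to 78322886). It lies within the region of replicate 2, 144 bases from the summit. The windows of Glul, Mt1, Cst3 and Mt3 were each overlapped by a region of replicate 3, and none of the 4 holds the letters. The Slc1a2 window was overlapped by no region of any replicate. Among all 21263 upstream windows of coding genes in the table, 12.4% hold the letters on either strand. Of the 35 windows of the 28 astrocyte genes in the table, 3 do (8.57%), in Aldoc, Acsl6 and Slc25a18. Those of the 11 members with a region in replicate 3 gave 0. A match describes the letters in this window alone, and the regions themselves extend beyond it.

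Glul, which encodes glutamine synthetase, carried by far the most signal of the astrocyte genes. Its RefSeq body spans chromosome 1, 153899929 to 153909723. In replicate 3 a single region of 6736 bp (153899380 to 153906115) began 549 bases before the start and ran through 6186 bases of the gene, with 15 summits. Its strongest summit reached a fold over background of 11.5, from 62 fragments over a background of 4.50 (95% Poisson interval of the fold 8.83 to 14.64, counting error only). That fold stood at the 99.5 percentile of the regions of replicate 3, and the region was number 32 by width. Further regions lay at 153906347 to 153906939, with a fold of 4.40, and past the end of the gene at 153909952 to 153911180, with a fold of 4.36. All 3 together covered 8558 bp, which placed Glul 43rd of the 6889 coding genes with a region by covered length and 54th by fold.

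Replicate 2 had regions over part of the same stretch, at lower folds. Its regions at Glul lay at 153899455 to 153900633 (fold 5.08, 25 fragments), 153901270 to 153903435 (fold 5.97, 27 fragments) and 153910154 to 153910472 (fold 4.05, 17 fragments). Each of these 3 regions lay wholly inside a region of replicate 3, the first 2 of them inside the same one. The region of replicate 3 at 153906347 to 153906939 overlapped none of replicate 2. The folds of 5.08 and 5.97 stood at the 85.1 and 94.3 percentiles of the list of replicate 2. From the 7 summits of replicate 2, the nearest summit of replicate 3 was, in order along the gene, 24, 40, 207, 99, 98, 321 and 5 bases away. The strongest summits did not coincide, lying 2600 bases after the start in replicate 2 and 1426 bases after it in replicate 3.

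Replicate 1 also had a region at Glul that the authors assigned to another gene. It lay at 153900072 to 153900409, from 143 to 480 bases after the Glul start, with a fold of 5.16 from 20 fragments over a background of 3.07 (95% Poisson interval 3.25 to 7.84). The authors' table gave it to Teddm2, a coding gene with an annotated start inside that interval. All 338 bp were overlapped by regions assigned to Glul in both other replicates. By position, Glul was thus the 1 member where regions of all 3 replicates overlapped, although the assigned symbol shows it in replicates 2 and 3 alone.

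**Figure D1:**
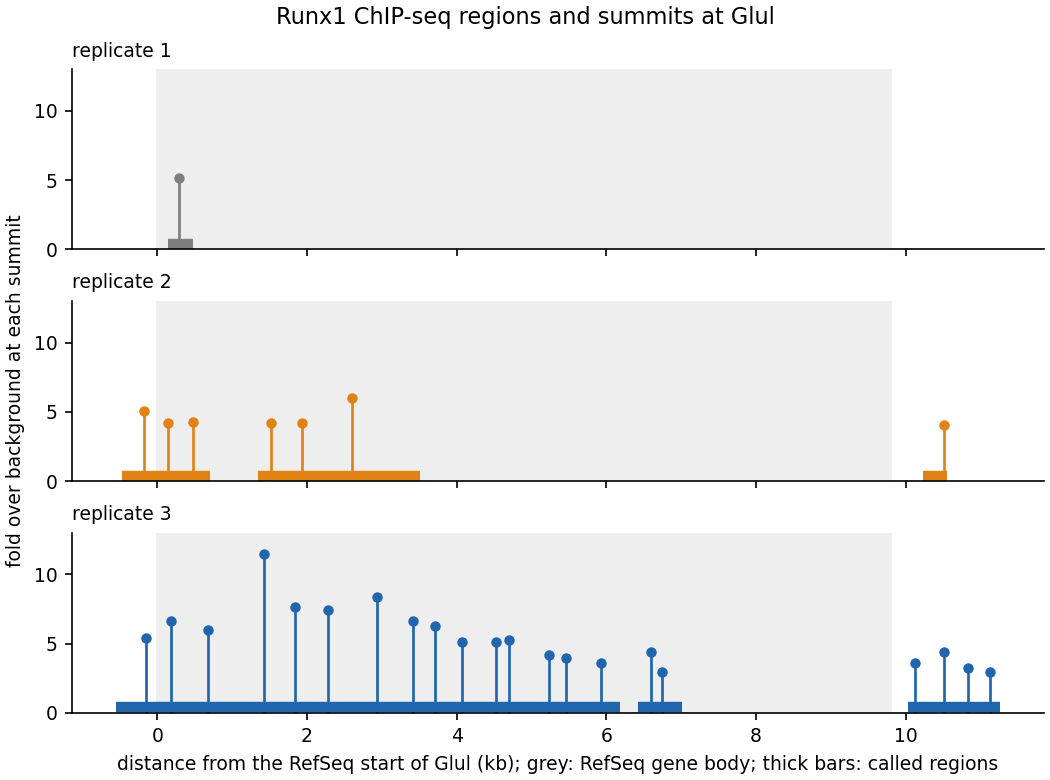
Called regions (thick bars) and summits (lollipops, height is the fold over background on a linear axis) in 3 replicates against distance in kb from the RefSeq start of Glul, with the gene body in grey. The 1 region of replicate 1 lies within the first region of replicates 2 and 3, and the highest summit, with a fold of 11.5, is in replicate 3 at 1426 bases after the start.

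The other enzymes had a region in 1 replicate or in none. Aldoc, a fructose-bisphosphate aldolase of glycolysis, had a promoter region in replicate 2 (chromosome 11, 78322855 to 78323310) with a fold of 4.77 from 17 fragments. Replicate 3, whose list is far longer, had no region there. The nearest one lay 4793 bases away, assigned to the neighbouring gene Pigs, with a fold of 3.62. Aldh1l1, a folate enzyme that marks astrocytes broadly, had 1 region in replicate 3 (chromosome 6, 90534918 to 90535644) with a fold of 5.05 from 35 fragments. The authors placed it in intron 1 of a longer Ensembl transcript of the same gene, 15145 bases before the assigned start and 15.1 kb outside the RefSeq body. By assigned symbol, Aldh1l1 was the only member besides Glul with a fold of at least 5 in any replicate. A region inside the Sparcl1 body, assigned to another gene, had a fold of 5.06 in replicate 3. Acsl6 and Acsbg1, which activate fatty acids, had no assigned region.

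The glutamate transporters had 1 region each, in replicate 3 alone. Slc1a2, the main glutamate transporter of astrocytes, had a region at chromosome 2, 102658730 to 102658981, with a fold of 3.72 from 22 fragments. It lay 491 to 742 bases into the RefSeq body, at the upstream start, and not at the start whose sequence is printed above. Slc1a3, which encodes the other astrocytic glutamate transporter, had an intergenic region 6516 bases upstream of its assigned start (chromosome 15, 8717281 to 8717707), with a fold of 3.30 from 21 fragments. A region of replicate 3 inside the Slc1a3 body (8658269 to 8658588, fold 2.85, 18 fragments) was assigned to Gm37310. The folds of the regions assigned to Slc1a2 and Slc1a3 were below the median of 3.81 of the regions in that list. No region was assigned to the remaining transporters, the GABA transporter gene Slc6a11, the bicarbonate cotransporter gene Slc4a4, the sodium pump subunit gene Atp1b2 and the mitochondrial glutamate carrier gene Slc25a18.

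Among 5 genes of the water channel, gap junctions and adhesion, Hepacam alone had a region. This is read beside the 31.5% of all coding genes with a region in replicate 3. Hepacam, an adhesion protein of astrocyte endfeet, had an intronic region in replicate 3 (chromosome 9, 37375452 to 37376394) with a fold of 4.50 from 23 fragments. An intergenic region 7416 bases upstream (37359679 to 37359935) had a fold of 3.83 from 15 fragments. The water channel gene Aqp4, the connexin genes Gja1 and Gjb6 and Mlc1, which encodes a partner of the Hepacam protein, had none. The region of replicate 3 nearest to Aqp4 was 627 kb away, and those nearest to Gja1 and Gjb6 were 261 and 290 kb away.

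Both filament genes, the classical markers of the astrocyte cytoskeleton, had no region in any replicate. Of all coding genes, 31.5% had a region in replicate 3, so no difference is read from these genes. The region nearest to Gfap in replicate 3 was 5.92 kb from its body, at the promoter of Eftud2, with a fold of 5.43. The one nearest to Vim was 303 kb away. Of the receptors and Notch modifiers, Lfng, a glycosyltransferase that modifies Notch, had a region 1689 bases upstream of an assigned start in replicate 3 (chromosome 5, 140609585 to 140609820), with a fold of 3.77 from 21 fragments. That region lay inside the RefSeq body of Lfng (140607341 to 140615545), after the RefSeq start. Fgfr3 and Ntsr2, a growth factor receptor and a neurotensin receptor, had none.

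Id3 and Id4 encode helix-loop-helix proteins that block the DNA binding of their partners. Id3 had a promoter region in replicate 3 (chromosome 4, 136143607 to 136143989) with a fold of 3.25 from 17 fragments. Id4 had no assigned region, but one of replicate 3 lay inside its body, 1488 to 1730 bases after the start, with a fold of 3.03 from 14 fragments. The authors gave that one to the antisense transcript A330033J07Rik. Ndrg2, a stress-responsive gene, had none.

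Of 6 genes for secreted proteins, 4 had a region in replicate 3 and 1 of them also in replicate 2. The shares of all coding genes were 31.5% and 5.17%, and with 6 genes no difference is read. Clu, a secreted chaperone, had a promoter region in both, with folds of 3.56 (13 fragments) in replicate 2 and 2.87 (21 fragments) in replicate 3. These did not overlap: they lay at chromosome 14, 65968336 to 65968641 and 65968766 to 65969053, 125 bases apart. The fold in replicate 3 was at the 9.44 percentile of its list, the lowest among the members' regions. Cst3, an inhibitor of cysteine proteases, had a fold of 3.72 from 29 fragments across its start (chromosome 2, 148875309 to 148875848). Cpe, a peptide-processing enzyme, had a fold of 3.43 from 17 fragments (chromosome 8, 64691746 to 64692141). Chrdl1 and Thbs4, both linked to synapse formation, had none.

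Sparcl1, whose secreted protein promotes synapse formation, had its region count set by the choice of gene. In replicate 3 the authors assigned it 2 regions, one across the start (chromosome 5, 104113575 to 104114104, fold 3.16, 23 fragments) and one further inside (104111514 to 104112313, fold 3.43, 18 fragments). A stronger region in the same gene body (104108472 to 104111176, 2705 bp, fold 5.06, 26 fragments) went to Gm26703, an antisense transcript. Replicate 1 had a region across the Sparcl1 start (104113803 to 104114102, fold 4.79, 18 fragments) and replicate 2 one at 104109385 to 104109721 (fold 3.47, 17 fragments), both also assigned to Gm26703. The regions of replicates 1 and 2 each overlapped a region of replicate 3 but not each other.

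The metal- and calcium-binding proteins had regions at 3 of 4 genes, all in replicate 3, where 31.5% of all coding genes had one. With 4 genes, no difference is read from that count. Mt1, a metallothionein that binds zinc and copper, had a region across its start (chromosome 8, 94178848 to 94179636) with a fold of 4.47, and its 52 fragments were the second highest pileup among the members' strongest summits after Glul. The background there was also high, at 10.8 fragments. A smaller Mt1 region at 94179851 to 94180173 had a fold of 3.15. Mt3, the metallothionein of brain and cord, had a promoter region (94152547 to 94152943) with a fold of 3.45 from 22 fragments. Mt2, whose body lies between them, had none, and the region of Mt1 began 5.28 kb from it. S100b, a calcium-binding protein, had 4 regions, the most of any member. Their folds were 4.36 in the intergenic region 4779 bases upstream (chromosome 10, 76247929 to 76249074), 3.20 at the promoter, and 3.24 and 2.97 at 1298 and 1748 bases after the start.

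**Figure D2:**
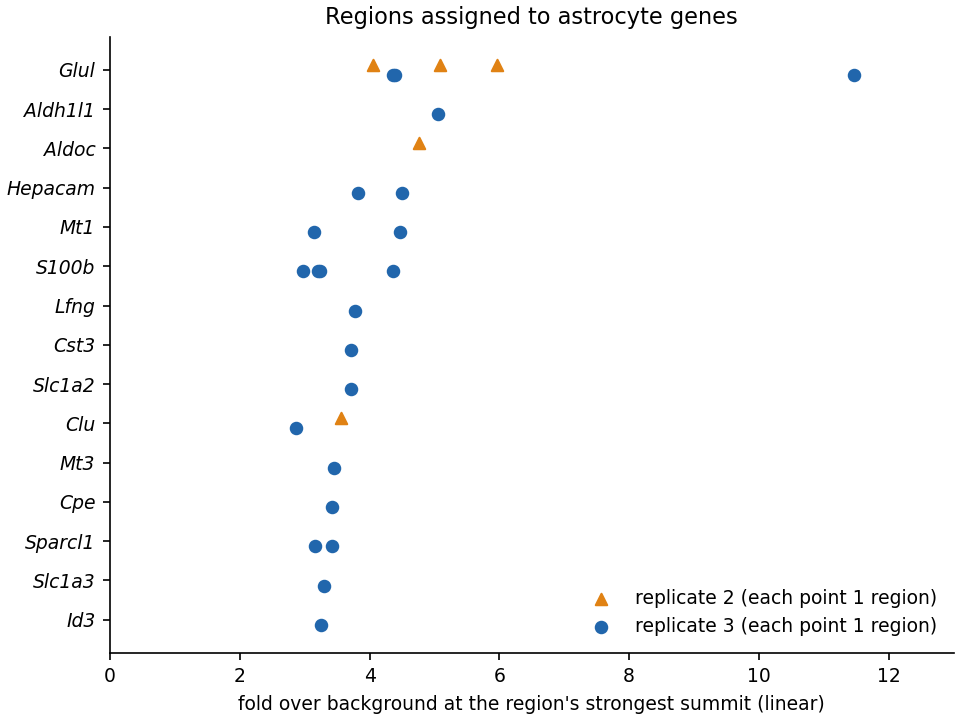
Fold over background (linear axis) at the strongest summit of each region assigned to an astrocyte gene, with triangles for replicate 2 and circles for replicate 3. Replicate 1 had no assigned region, and every region outside Glul lies between 2.87 and 5.05.

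Counted by assigned symbol, the astrocyte genes stood near the share of all coding genes in each replicate. Replicate 1 had 0 of 34 (95% Wilson interval 0 to 10.2%), against 1.51% of coding genes. Replicate 2 had 3 of 34, Glul, Aldoc and Clu (8.82%, interval 3.05 to 23.0), against 5.17%. Replicate 3 had 14 of 34 (41.2%, interval 26.4 to 57.8), against 31.5%. At least 2 replicates had a region at 2 of 34, Glul and Clu (5.88%, interval 1.63 to 19.1), against 5.43% of coding genes. In replicate 3 a region that the authors class as promoter, at most 1 kb from a start, was present at 10 of 34 (29.4%, interval 16.8 to 46.2), against 28.4%. Each background share lay inside the interval of the members' share, so no difference from other genes was detectable with 34 genes.

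Counting by position instead, over the RefSeq body and 1 kb on each side, changed which genes were counted. Members with a region were 2, 4 and 15 of 34 in replicates 1, 2 and 3, against 1.91%, 6.23% and 36.5% of coding genes. At least 2 replicates had one at 4 of 34, Glul, Aldoc, Clu and Sparcl1 (11.8%, interval 4.67 to 26.6), against 6.68%. In replicate 3, Aldoc was counted only through the promoter region assigned to Pigs, 322 bases past the end of Aldoc. All 3 replicates had one at Glul and Sparcl1 (5.88%, interval 1.63 to 19.1), against 1.17%. Each background share but the last lies inside the members' interval. The last, 1.17%, lies below it, but the count rests on 2 genes, which were singled out after their values were seen, and the difference was not tested.

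In strength, Glul stood highest among the members. In replicate 3 the strongest region per gene had a median fold of 3.72 over the 14 members, against 4.04 over all 6889 coding genes with a region. Above that median were Glul, Aldh1l1, Hepacam, Mt1 and S100b, and 9 members were below it. Without Glul the 13 others ranged from 2.87 to 5.05. Of the 18262 bp covered by the members' regions, 46.9% lay at Glul, as did 21 of the 46 summits. Of the 22 regions, 12 had a −log10 q below 5, in a list that ends at 2.00. The share of all regions of replicate 3 below 5 is not given here, so no difference is read from that count.

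**Figure D3:**
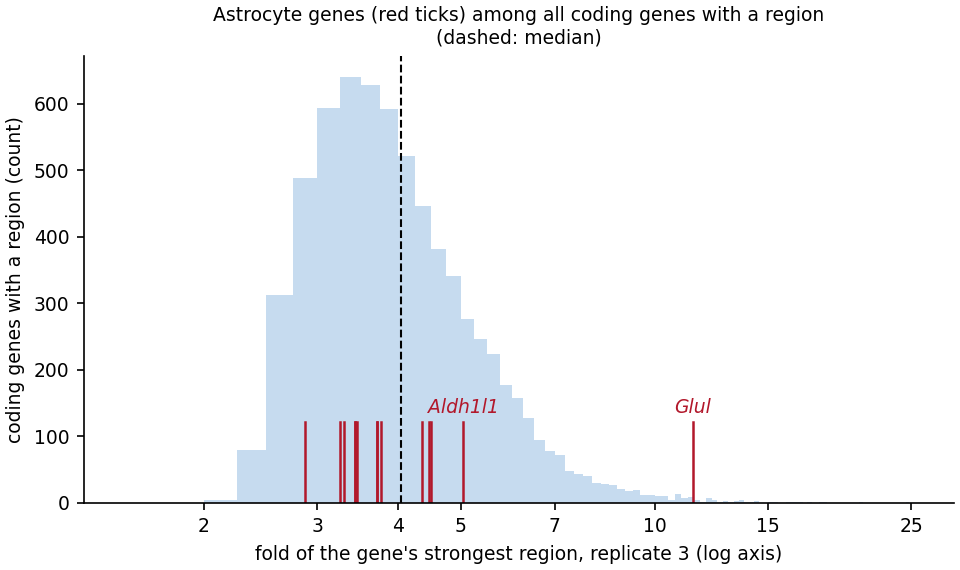
Histogram of the fold of the strongest region of each coding gene in replicate 3 (log axis, bins of equal linear width), with a red tick for each of the 14 astrocyte genes and a dashed line at the median of 4.04. Glul at 11.5 stands in the upper tail, and 9 of the 14 ticks lie left of the line.

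Regions of the members lay mostly at or near start sites. In replicate 3, 12 of 22 (54.5%) were within 1 kb of a start, against 62.6% of all regions. A further 4 (18.2%) were 1 to 2 kb away, against 5.58%, 3 of them at S100b or Sparcl1. All promoter classes out to 3 kb together held 16 of 22 (72.7%), close to the 71.5% of all regions. Intergenic sequence held 4 (18.2%), at Glul, S100b, Slc1a3 and Hepacam, against 9.67%. Introns held 2 (9.09%), at Aldh1l1 and Hepacam, against 15.8%. With several regions from the same gene, these are not independent, and the differences were not tested. Of the 14 members, 9 had 1 region each (64.3%), against 74.4% of coding genes with a region.

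For the 20 members without an assigned region in replicate 3, the median distance from the gene body to the nearest region was 66.3 kb. A region lay within 10 kb of 4 of them, Id4, Aldoc, Mt2 and Gfap. Chrdl1 was the farthest, at 895 kb. The nearest regions to Atp1b2 (18.1 kb), Acsbg1 (18.2 kb) and Slc25a18 (28.2 kb) lay at the promoters of other genes. The same distances over all coding genes without a region are not given here, so no difference is read from these gaps.

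**Figure D4:**
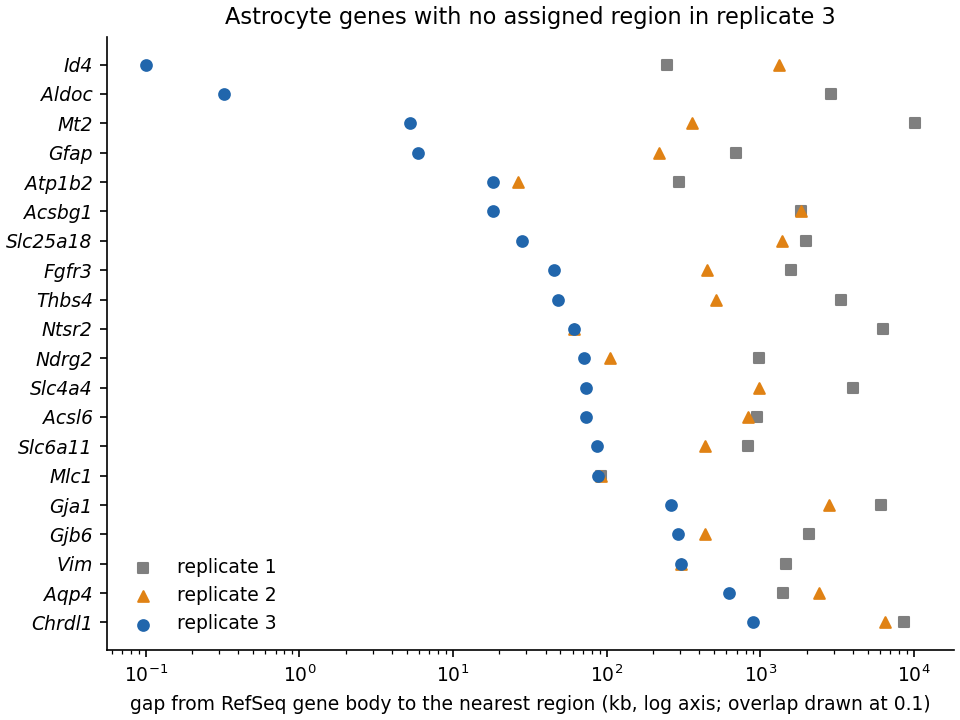
Distance in kb (log axis) from the RefSeq body of each of the 20 astrocyte genes without an assigned region in replicate 3 to the nearest region of each replicate, with an overlap drawn at 0.1; a point is left out where the gene has an assigned region in that replicate. The circles of replicate 3 run from an overlap at Id4 to 895 kb at Chrdl1.

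A second list of 87 other astrocyte genes was set beside all coding genes in the same way. In replicate 3, 33 of 87 had a region (37.9%, interval 28.5 to 48.4), against 31.5% of coding genes. In replicate 2, 11 of 87 had one (12.6%, interval 7.21 to 21.2), and the 5.17% of coding genes lies below that interval. The same 11 of 87 had regions in at least 2 replicates, and the 5.43% of coding genes lies below the interval too. Replicate 1 had 2 of 87, Nfia and Nfib (2.30%, interval 0.633 to 8.00), against 1.51%. None of these differences was tested. These 2 genes encode nuclear factor I proteins, which drive the onset of astrocyte formation. Their strongest regions had folds of 4.65, 4.34 and 9.11 (Nfia) and 4.76, 5.31 and 8.15 (Nfib) in replicates 1, 2 and 3. They were not the same sites throughout. The Nfia regions of replicates 1 and 2 overlapped at the promoter, whereas that of replicate 3 was intronic. The Nfib regions did not overlap between replicates. By role, 13 of 20 transcription factors had a region in replicate 3, read beside the 31.5% of all coding genes, and the difference between roles was not tested. The highest fold was 16.3 at Sox2, a factor of neural stem cells and glia. Of 13 genes for channels and transport, 5 did, including Kcnj10, the potassium channel of astrocytes, with folds of 5.15 and 7.80 in replicates 2 and 3, and the glycine transporter gene Slc6a9, with 3.74 and 7.54. The strongest Slc6a9 regions of replicates 2 and 3 did not overlap. Dbi, an acyl-CoA-binding protein, had a fold of 8.57 in replicate 3 alone. Others with regions in replicates 2 and 3 were Nfix, Zbtb20, Fgfr2, Grm3, Slc27a1, Gpm6b and Sox2. Several of these genes, such as Gpm6b and Nfia, are also expressed by oligodendrocytes or their precursors.

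Of 24 genes induced in reactive astrocytes, among them Lcn2, Serpina3n, C3, Timp1 and Cd44, none had an assigned region in any of the 3 replicates (0 of 24, interval 0 to 13.8% in each). The share of all coding genes in replicate 3, 31.5%, lies above that interval. The shares in replicates 1 and 2, 1.51% and 5.17%, lie inside it. These differences were not tested.

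Set beside other cell types in replicate 3, the 34 astrocyte genes fell between oligodendrocyte and neuronal genes on one side and microglial and vascular genes on the other. A region was assigned to 24 of 24 oligodendrocyte genes (interval 86.2 to 100%), with a median fold of 8.00 at the strongest region. It was assigned to 16 of 24 neuronal genes (66.7%, interval 46.7 to 82.0, median fold 3.78), 2 of 24 microglial genes (8.33%, interval 2.32 to 25.8) and 1 of 24 endothelial, mural and meningeal genes (4.17%, interval 0.739 to 20.2). The interval of the astrocyte genes, 26.4 to 57.8%, overlapped that of the neuronal genes and not those of the oligodendrocyte, microglial or vascular genes. The 31.5% of coding genes lies below the oligodendrocyte and neuronal intervals and above the microglial and vascular ones. In replicate 2 oligodendrocyte genes had 15 of 24 (62.5%, interval 42.7 to 78.8) and neuronal genes 4 of 24 (16.7%, interval 6.68 to 35.9), beside 3 of 34 for astrocyte genes and 5.17% of coding genes. In replicate 1 neuronal genes had 3 of 24 (12.5%, interval 4.34 to 31.0), and oligodendrocyte and astrocyte genes 0, beside 1.51% of coding genes. The genes of a list share libraries and differ in length and expression, and these differences were not tested.

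**Figure D5:**
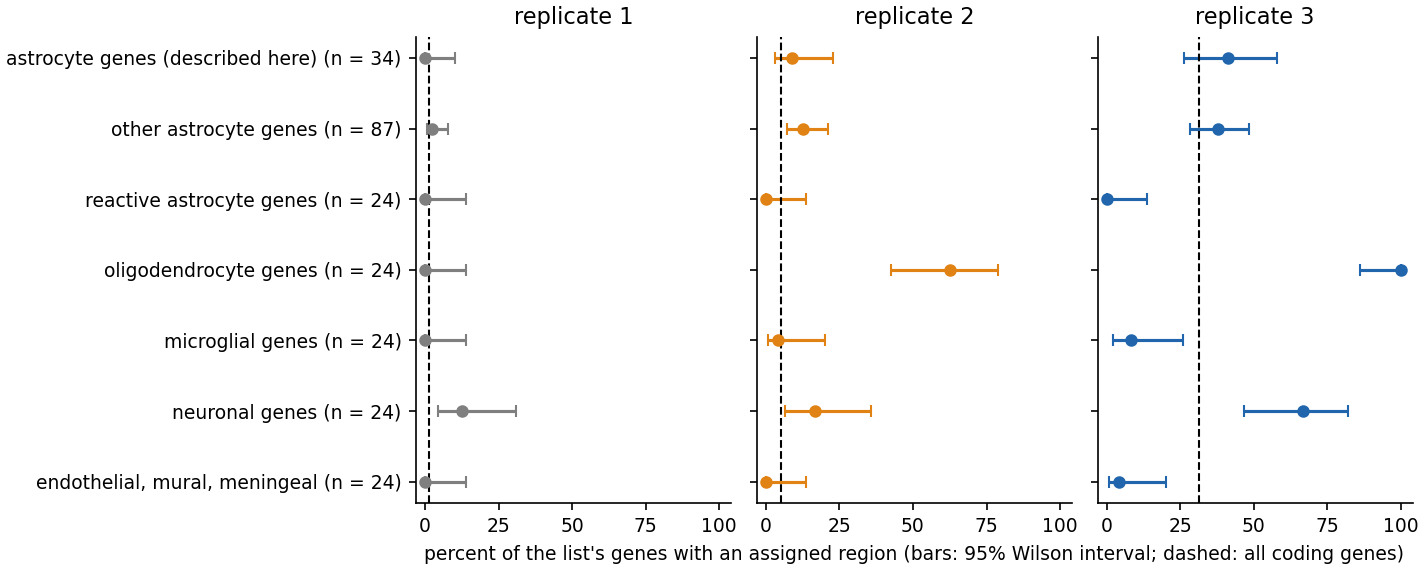
Percent of the genes of each list with an assigned region in each replicate, with 95% Wilson intervals as bars and the share of all coding genes as a dashed line. In replicate 3 the 34 astrocyte genes lie at 41.2%, with the line of 31.5% inside their interval, and the 24 oligodendrocyte genes lie at 100%.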

How the data were processed

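Runx1 ChIP-seq of 3 spinal cord samples was read from the deposited peak lists and annotated tables. Per the submitters' processing notes, Trimmomatic 0.38, FastQC, Bowtie2, SAMtools 1.9, Picard 2.18.26 and MACS2 2.1.2 were used with GRCm38. Settings and the control library: not given in the sources used here. Calling was per sample, and the deposited lists give each summit a score, a ratio (its fold over background), a −log10 p and a −log10 q from the authors' caller. The annotated tables give the authors' gene, location and distance.

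A region took the fold of its strongest summit, and starts are counted from 1. Fold and −log10 p were solved for a whole-number pileup, within 0.001, for 100% of summits. Fold intervals are exact Poisson intervals of that pileup at a fixed background and do not allow for choosing the summit. Genes were matched to RefSeq (GRCm38.p6) by symbol or synonym, and 98.8%, 99.7% and 99.1% of assigned coding symbols matched. Shares have 95% Wilson intervals, and no test was run. Every member with a region was named, and of the other astrocyte genes, those with regions in at least 2 replicates and the 6 with the highest fold in replicate 3. The remaining lists are given as counts. Members and lists were chosen with earlier results of these data known. Alternatives were a q of 1e-05 or lower, a fold of 5 or more and gene assignment by RefSeq body. Others were overlapping regions with the same assigned gene, equal list length and leaving out each replicate. Scripts were tested on simulated data, with scipy 1.17.1, pandas 2.3.3, numpy 2.4.6 and matplotlib 3.10.9 under Python 3.11.15.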

Additional observations from a re-analysis of the deposited data

How the results depend on the processing

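The number of astrocyte genes with a region followed the limit. With a q of 1e-05 or lower it was 1 in replicate 2, 8 in replicate 3 and 1 in at least 2 replicates, against 2.08%, 22.1% and 2.38% of coding genes, and 4 genes kept a promoter region in replicate 3, against 19.7%. With a fold of 5 or more it was 1, 2 and 1, against 0.882%, 8.50% and 1.04%. With only as many regions of replicate 3 as replicate 2 has, taken by lowest q, it was 2, Glul and Mt1, against 5.61%. By RefSeq body it was 2 in replicate 1 and 4 in at least 2 replicates. Where the regions of 2 replicates had to overlap and share an assigned gene it was 1, Glul, against 5.14%. At Sparcl1, regions of replicates 1 and 3 overlapped across its start but were assigned to different genes. Dropping 1 replicate at a time, the genes with a region in both others numbered 0 to 2: 2 without replicate 1 (4.84% of coding genes), 0 without replicate 2 (1.40%) and 0 without replicate 3 (0.859%). Stricter limits leave fewer regions by construction. The counts by RefSeq body in replicates 2 and 3 and the promoter classes out to 3 kb kept close to the values reported. The members' median fold in replicate 3, 3.72 as reported, was 4.42 with a q of 1e-05 or lower. With the median summit of a gene's regions it was 3.52. The 4.04 over all coding genes belongs to the reported limit. No paired analysis was possible because the 3 samples form 1 group. Pileups of 13 to 62 fragments at the members' strongest summits limit each fold, as the Poisson intervals show.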

Other observations

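CpG in the upstream windows was counted as a description of the promoters. The 250 bases before the start held a median of 10 CpG over all windows of coding genes and 7 over the 35 windows of astrocyte genes. The median was 16 over coding genes with a region in replicate 3 and 6 over those without one. Astrocyte genes had a median of 7 CpG both with a region (11 windows) and without one (24 windows). Their median GC content was 58.8% and 59.2%, against 60.0% and 52.8% for coding genes with and without a region. Among single genes, Glul and Mt1 had 15 and 17 CpG in the window and Id3 had 18, whereas Mt3 and S100b, both with a promoter region, had 5 and 2. Slc4a4 had windows with 44 and 3 CpG and Id4 a window with 35, and neither gene had an assigned region. These values were not tested.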
